A study of Mus musculus with 4 samples.

Results

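The Hox genes are the homeobox genes of the HoxA, HoxB, HoxC and HoxD clusters, and they were taken as the rows of the gene count table whose symbol is Hox, a letter from a to d and a number. The rule found 39 genes among 51826 rows, 11 in HoxA, 10 in HoxB, 9 in HoxC and 9 in HoxD. They were measured by RNA-seq in cultured mesenchymal cells of the mouse whisker follicle, and there was 1 library in each of 4 groups. The dermal papilla cells are written DPCs and the dermal sheath cells DSCs, and both were sequenced at passage 3 (P3, the low passage) and at passage 9 (P9, the high passage). The dermal papilla is the mesenchymal core of the hair bulb, and the dermal sheath is the mesenchymal layer around the outside of the follicle. The cells of all 4 groups came from vibrissal follicles dissected from the cheeks of EGFP-transgenic C57BL/6J mice aged 5 to 6 weeks, were labelled WT, and were expanded by replating in DMEM, to which the study's methods add fetal bovine serum. The labels name no treatment. The promoter that drives EGFP, the number of mice per culture, and whether the passages were drawn from one culture are not given in the sources used here. The study sequenced these libraries to ask what differs in expression between cells that had been passaged little and cells that had been passaged often.

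Hox genes encode homeodomain transcription factors that give positional identity along the head-to-tail axis and the limbs, and each cluster holds its genes in the order in which they are used along the body. Genes with low paralogue numbers lie at the 3′ end of a cluster and act towards the head, and genes with high numbers lie at the 5′ end and act towards the tail and the ends of the limbs. Fibroblasts of adult skin keep a Hox pattern that depends on their place in the body, and the facial mesenchyme from which whisker follicles form arises largely from cranial neural crest in which Hox genes are silent.

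On the GRCm38 assembly the HoxA genes lie on the minus strand of chromosome 6. The HoxB genes span chr11:96194316-96368256, the HoxC genes chr15:102921103-103036852 and the HoxD genes chr2:74668310-74765142, all on the plus strand. RefSeq promoter sequence of GRCm38.p6 was matched for 22 of the 39 genes by symbol, in 24 windows. The windows below are those just upstream of the start of Hoxd9 and Hoxd8, which had their highest counts in DPCs, of Hoxb8 and Hoxb4, which had theirs in P9 DSCs, and of Hoxb1 and Hoxd12, which had 0 counts in every library. Each is written 5′ to 3′ and stops short of any annotated exon, so that the Hoxd9 window holds 140 bases, the Hoxb1 window 244 and the others 250. Capitals mark TATAAA and CCAAT on either strand.
Hoxd9 (chr2:74697587-74697726, + strand): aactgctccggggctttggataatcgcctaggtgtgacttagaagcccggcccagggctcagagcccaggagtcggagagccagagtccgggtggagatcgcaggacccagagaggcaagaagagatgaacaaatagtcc
Hoxd8 (chr2:74704365-74704614, + strand): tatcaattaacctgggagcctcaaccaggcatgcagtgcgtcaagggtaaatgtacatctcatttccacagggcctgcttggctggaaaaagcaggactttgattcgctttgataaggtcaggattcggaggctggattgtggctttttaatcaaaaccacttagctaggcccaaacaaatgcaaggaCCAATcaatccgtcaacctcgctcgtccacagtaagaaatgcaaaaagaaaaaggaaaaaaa
Hoxb8 (chr11:96281655-96281904, + strand): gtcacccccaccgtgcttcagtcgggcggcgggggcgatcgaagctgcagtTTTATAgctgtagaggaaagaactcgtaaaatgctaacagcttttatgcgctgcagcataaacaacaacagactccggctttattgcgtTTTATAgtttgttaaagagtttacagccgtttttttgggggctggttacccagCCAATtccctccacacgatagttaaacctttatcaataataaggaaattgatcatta
Hoxb4 (chr11:96318017-96318266, + strand): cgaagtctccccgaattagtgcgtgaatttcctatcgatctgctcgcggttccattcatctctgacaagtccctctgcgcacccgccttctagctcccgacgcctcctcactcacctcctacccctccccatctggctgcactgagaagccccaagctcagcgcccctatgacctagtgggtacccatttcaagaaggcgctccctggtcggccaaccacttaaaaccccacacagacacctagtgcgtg
Hoxb1 (chr11:96365508-96365751, + strand): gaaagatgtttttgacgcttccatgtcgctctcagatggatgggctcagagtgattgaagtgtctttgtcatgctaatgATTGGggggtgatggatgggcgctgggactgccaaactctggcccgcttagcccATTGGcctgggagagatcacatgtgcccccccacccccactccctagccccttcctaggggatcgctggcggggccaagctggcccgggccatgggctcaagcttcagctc
Hoxd12 (chr2:74674763-74675012, + strand): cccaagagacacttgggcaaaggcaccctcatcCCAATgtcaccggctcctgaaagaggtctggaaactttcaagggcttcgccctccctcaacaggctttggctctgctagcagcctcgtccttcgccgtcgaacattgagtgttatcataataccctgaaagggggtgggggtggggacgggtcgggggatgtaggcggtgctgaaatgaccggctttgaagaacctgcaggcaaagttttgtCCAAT

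The Hoxb8 window held 2 matches to TATAAA and 1 to CCAAT, and the Hoxb4 window held neither motif. The Hoxd8 window held 1 match to CCAAT, and Hoxb1 and Hoxd12, both at 0 counts, each had 2. The 8-base letters TGATTNAT, a form of the joint Hox and Pbx site, were in none of the 6 windows printed. Over the 24 Hox windows of 250 upstream bases, CCAAT stood in 14 and TATAAA in 4, whereas 33.8% of all 32851 mouse promoter windows of that length held CCAAT and 12.4% held TATAAA. TGATTNAT stood in 2 of the 24 Hox windows and in 2.82% of all promoters. The Hox windows had a median GC content of 58.6% and a median of 12.5 CpG sites, against 52.4% and 6.0 over all promoters. The presence of these letters did not divide the detected from the undetected genes in the 6 windows shown, and a match is a description of the sequence only.

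The libraries held 34981284 to 47604059 counts, and a gene was taken as detected above 3 counts, which corresponds to 0.0658 to 0.0836 CPM (counts relative to the library total, scaled by TMM) depending on the library. Fibroblast markers were abundant in all 4 libraries, but they did not move together with passage. Col1a1 had 266500, 43703, 405062 and 376457 counts in P3 DPCs, P9 DPCs, P3 DSCs and P9 DSCs. In the same order, Dcn had 4285, 5494, 3292 and 89544 counts and Pdgfra 11173, 29093, 4594 and 12132. The sheath marker Acta2 was high in DPCs as well as DSCs, with 67135 to 262118 counts. The 6 papilla markers did not separate the cell types in 1 direction. Sox2 had 1677 and 1491 counts in P3 and P9 DPCs against 269 and 178 in DSCs, and Lef1 had 508 in P3 DPCs and 2 in P9 DPCs against 101 and 55. Ncam1, which is on the papilla and the sheath list, had 3642 and 1673 counts in DPCs against 11755 and 15584 in DSCs. Vcan had 2913 to 5272 counts, Alpl 6 to 23 and Corin 0 to 10. The labels could therefore be checked for mesenchyme, but the markers of papilla against sheath were at odds with one another.

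Markers of other cell types differed with passage in both cell types. The 5 immune markers summed to 21.2 CPM in P3 DPCs and 9.03 CPM in P9 DPCs, and to 32.9 CPM in P3 DSCs and 14.0 CPM in P9 DSCs, with 4 of 5 detected in every library. The 4 endothelial markers summed to 2.42 and 0.111 CPM in DPCs, with 3 and 1 detected, and to 5.48 and 0.987 CPM in DSCs, with 4 and 3 detected. The 5 Schwann markers summed to 7.96 and 3.65 CPM in DPCs and to 14.5 and 5.09 CPM in DSCs, with 5 detected in each P3 library and 3 in each P9 library. These 3 lists were thus lower at passage 9 in both cell types, and the endothelial marker Cdh5 and the Schwann markers Sox10 and Foxd3 were at 0 counts in both P9 libraries. The 5 skeletal muscle markers summed to 40.6 and 0.418 CPM in DPCs and to 48.4 and 23.8 CPM in DSCs. Of these 5, 1 was detected, Acta1, with 1495, 13, 1837 and 1083 counts in P3 DPCs, P9 DPCs, P3 DSCs and P9 DSCs. Myod1, Myf5 and Pax7 were at 0 in all libraries, so the lower sums at passage 9 are those of Acta1. The 8 keratinocyte markers went the other way, from 0.679 to 5.52 CPM in DPCs and from 2.72 to 51.4 CPM in DSCs, where 2307 counts were of Dsp, but Krt5, Krt14, Krt15 and Cdh1 were at 0 in all libraries. Melanocyte markers summed to 0.462 to 1.03 CPM with 1 of 5 detected, and hair matrix and cortex markers to 7.46 to 19.3 CPM with 1 to 3 of 5. The part of these cells in the Hox values below was not tested. In bulk RNA, more cells that express a gene and more RNA of it per cell cannot be told apart.

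Of the 39 Hox genes, 7 were detected in P3 DPCs, 14 in P9 DPCs, 12 in P3 DSCs and 21 in P9 DSCs. Over all rows of the table the shares detected were much more even, at 36.1%, 37.2%, 36.1% and 37.9%. Over the 4 libraries, 24 Hox genes were detected in at least 1 library, and Hoxc6, Hoxd3, Hoxd4 and Hoxd8 were among those detected in every library. The library of P9 DSCs was the only one with more than 3 counts of Hoxb2, Hoxb3, Hoxb5, Hoxb6, Hoxb7, Hoxc8 and Hoxc9, which makes 7 of 39 genes, whereas 1.42% of all rows were detected in that library alone. Hoxa4 and Hoxd10 were detected in P9 DPCs alone, at 4 and 8 counts. With 1 library per group there is no replicate error, so no difference below carries a p-value, and a difference between groups cannot be told apart from a difference between libraries.

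In all, 15 of the 39 genes stayed at or under 3 counts throughout. Hoxa5, Hoxa6, Hoxa9, Hoxa10, Hoxa13, Hoxb1, Hoxc11, Hoxc12, Hoxd11, Hoxd12 and Hoxd13 had 0 counts in every library, and Hoxa7, Hoxa11, Hoxb13 and Hoxd1 had 2 counts in P9 DPCs and 0 elsewhere. A count of 0 allows a level of up to 0.0815 CPM in P3 DPCs, 0.0836 in P9 DPCs, 0.0791 in P3 DSCs and 0.0658 in P9 DSCs. The genes not detected included nearly the whole 5′ end of the clusters. Among the 9 genes of paralogue groups 11 to 13, which pattern the distal limb and the tail end of the trunk, 1 was detected, Hoxc13.

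**Figure D1:**
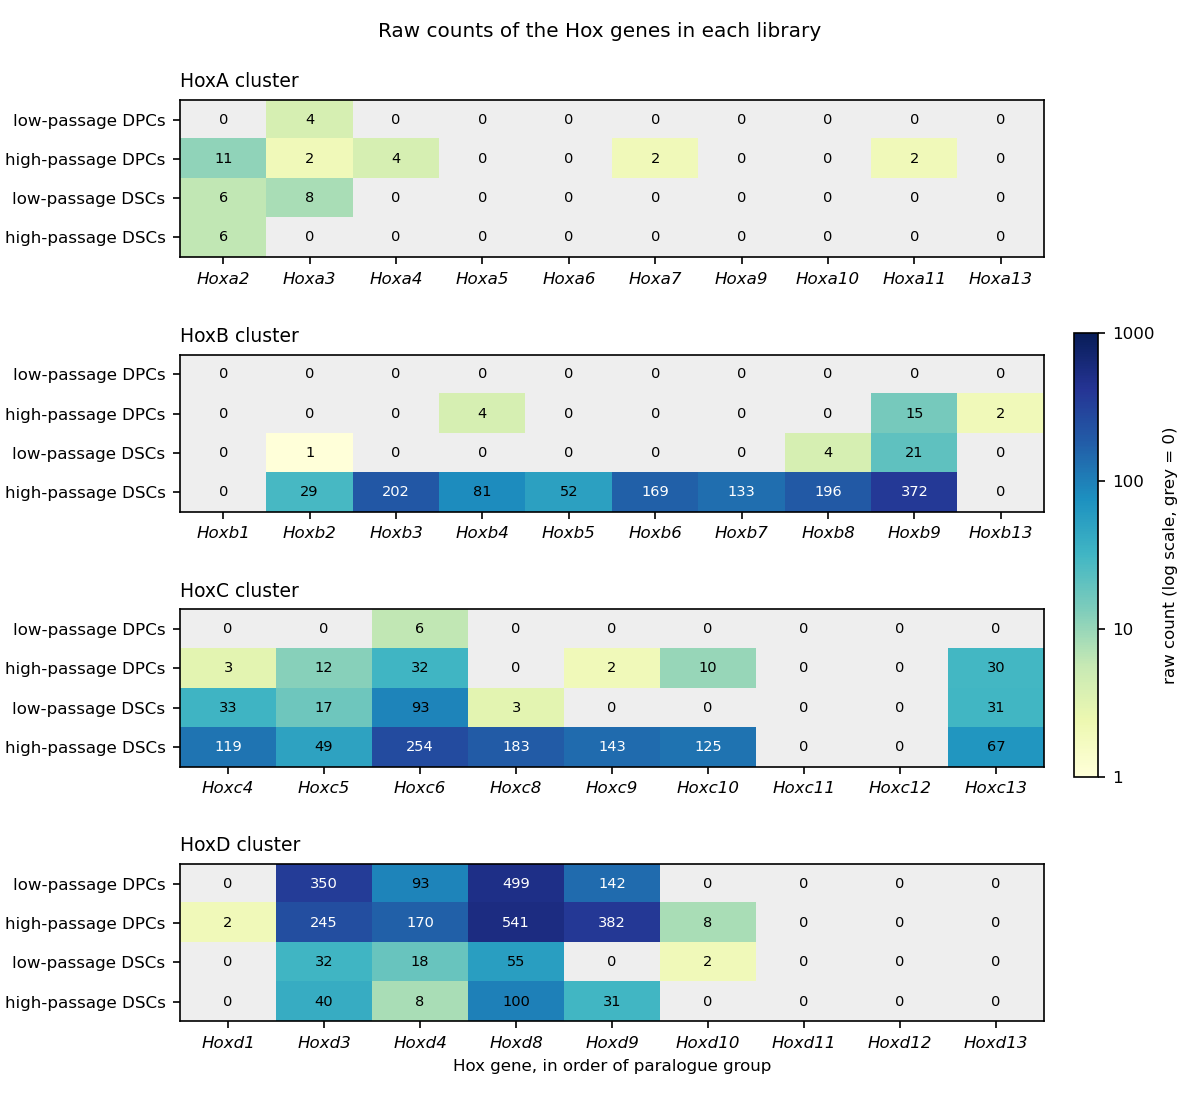
Raw counts of 38 of the 39 Hox genes, with 1 panel per cluster, genes in columns in order of paralogue group and the 4 libraries in rows. Colour gives the count on a log scale and grey marks 0; HoxD counts concentrate in the DPC rows, and HoxB counts lie almost entirely in the row of P9 DSCs.

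Many of the detected genes lay in runs of neighbours, though not in every library. In P9 DPCs the 2 detected HoxB genes, Hoxb4 and Hoxb9, stood apart. Of the 4 HoxC genes detected there, Hoxc5 and Hoxc6 formed a run of 2, and Hoxc10 and Hoxc13 stood alone. In P9 DSCs the run in HoxB took in the 8 genes from Hoxb2 to Hoxb9 and left out Hoxb1 and Hoxb13 at its ends. The HoxC run in the same library took in the 6 genes from Hoxc4 to Hoxc10, after which Hoxc11 and Hoxc12 had 0 counts and Hoxc13 had 67. In HoxD the run was the 4 genes Hoxd3, Hoxd4, Hoxd8 and Hoxd9 in P3 DPCs and in P9 DSCs, 5 genes with Hoxd10 in P9 DPCs, and 3 genes without Hoxd9 in P3 DSCs.

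The clusters differed in where they were expressed. Summed over its genes, HoxD had 1084 counts in P3 DPCs and 1348 in P9 DPCs, against 107 in P3 DSCs and 179 in P9 DSCs. HoxD made up 95.3% of all Hox counts in P3 DPCs (95% Clopper-Pearson interval 93.9 to 96.4%) and 89.0% in P9 DPCs (87.3 to 90.5%). HoxB had 0, 21, 26 and 1234 counts in the same order of libraries, so that it was not detectable at this depth in P3 DPCs and made up 50.6% (48.5 to 52.6%) of Hox counts in P9 DSCs. HoxC had 6, 89, 177 and 940 counts and was the leading cluster in P3 DSCs, at 49.2% of Hox counts (43.9 to 54.5%). Intervals here and below are at the 95% level and cover counting error only.

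The Hox genes together took 30.9 CPM in P3 DPCs, 42.2 CPM in P9 DPCs, 9.49 CPM in P3 DSCs and 53.6 CPM in P9 DSCs. The P3 DSC library was thus the lowest and the P9 DSC library the highest, a ratio of 5.64 (5.05 to 6.32), and the ratio of high to low passage in DPCs was 1.37 (1.26 to 1.48). These levels are modest. On the authors' FPKM scale, which divides by gene length, Hoxd8 was the highest Hox gene in DPCs at 5.82 FPKM at low passage and 6.30 FPKM at high passage, above 63.2% and 66.2% of the genes with a count. Hoxc6 was the highest in DSCs, at 1.68 FPKM at low passage and 3.85 FPKM at high passage, above 49.0% and 60.6% of the genes with a count.

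**Figure D2:**
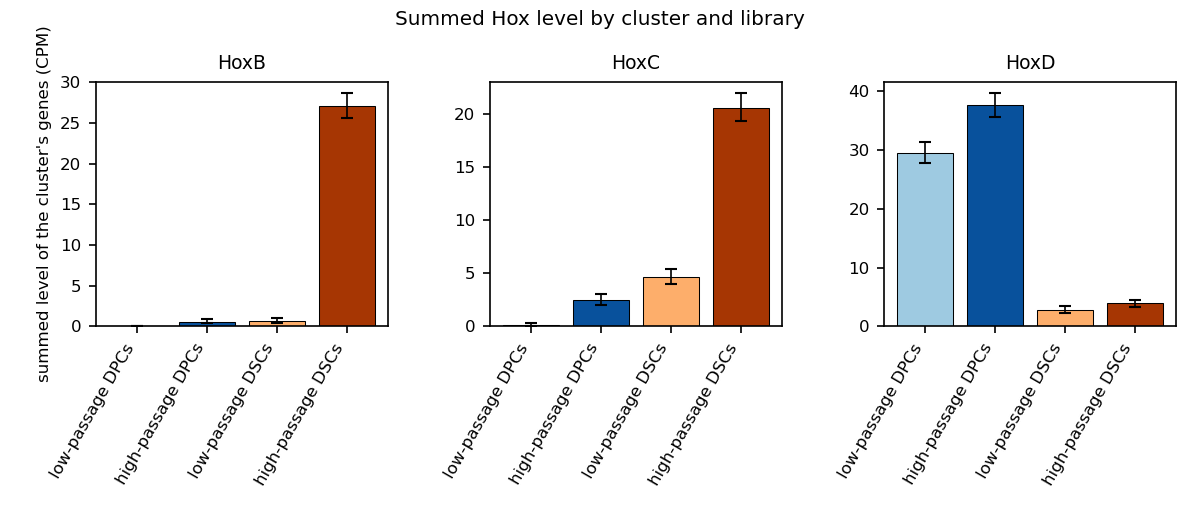
Summed level of the genes of HoxB, HoxC and HoxD in CPM, with 1 bar per library and exact Poisson 95% intervals of the summed counts as error bars (counting error only, 1 library per bar). HoxB reaches 27.1 CPM in P9 DSCs, HoxC reaches 20.6 CPM there, and HoxD is at 29.5 and 37.6 CPM in DPCs against 2.82 and 3.93 CPM in DSCs.

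HoxD was the cluster of the DPCs. Hoxd8, a central gene of the cluster, had 499 counts in P3 DPCs, 541 in P9 DPCs, 55 in P3 DSCs and 100 in P9 DSCs. Its level in DPCs was 9.35-fold that in DSCs at passage 3 (7.07 to 12.6) and 6.87-fold at passage 9 (5.54 to 8.59). Both DPC libraries were well above both DSC libraries, and the 2 passages of DPCs differed by a ratio of 1.11 (0.983 to 1.26).

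Hoxd9, which acts in the lumbar region and the upper limb, had 142, 382, 0 and 31 counts in P3 DPCs, P9 DPCs, P3 DSCs and P9 DSCs. It was at least 48.8-fold higher in DPCs than in DSCs at passage 3, where the bound takes 3 counts for the library at 0, and 15.6-fold higher at passage 9 (10.8 to 23.4). It was higher at passage 9 than at passage 3 in both cell types, 2.76-fold in DPCs (2.27 to 3.37) and at least 8.60-fold in DSCs.

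Hoxd3 and Hoxd4 pattern the neck vertebrae. Hoxd3 had 350, 245, 32 and 40 counts in the same order, and was 11.3-fold higher in DPCs at passage 3 (7.84 to 16.7) and 7.78-fold higher at passage 9 (5.55 to 11.2). Hoxd4 had 93, 170, 18 and 8 counts, and was 5.32-fold higher in DPCs at passage 3 (3.19 to 9.37) and 27.0-fold higher at passage 9 (13.4 to 63.5). Counts of these genes are uncertain as to which gene they belong to. In the annotation Hoxd3 shares 62.3% and Hoxd4 52.3% of its exon bases with exons of the other or of the overlapping gene Gm28230 on the same strand. Gm28230 itself had 212, 525, 7 and 5 counts. Hoxd8 and Hoxd9 share no exon base with another gene on their strand.

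The remaining HoxD genes were at or near 0. Hoxd10 had 8 counts in P9 DPCs and 2 in P3 DSCs, Hoxd1 had 2 counts in P9 DPCs, and Hoxd11, Hoxd12 and Hoxd13 were at 0. For the cluster as a whole the DPC level was 10.4-fold the DSC level at passage 3 (8.55 to 12.9) and 9.56-fold at passage 9 (8.18 to 11.2). The ratio of passage 9 to passage 3 was 1.28 in DPCs (1.18 to 1.38) and 1.39 in DSCs (1.09 to 1.79).

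HoxB was the cluster of the P9 DSCs. Hoxb9, a gene of the thoracic region, had 0 counts in P3 DPCs, 15 in P9 DPCs, 21 in P3 DSCs and 372 in P9 DSCs. It was 14.7-fold higher at passage 9 than at passage 3 in DSCs (9.50 to 24.1) and at least 5.13-fold higher in DPCs. Of the HoxB genes, it was the one with the most counts and the only one above 10 counts in any library other than P9 DSCs.

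Hoxb3, Hoxb5, Hoxb6 and Hoxb7 had 0 counts in 3 of the 4 libraries. In P9 DSCs Hoxb3, a gene of the hindbrain and neck, had 202 counts, and Hoxb5, Hoxb6 and Hoxb7, which act in the neck and chest, had 52, 169 and 133. Against P3 DSCs these are differences of at least 56.0-fold for Hoxb3, 14.4-fold for Hoxb5, 46.9-fold for Hoxb6 and 36.9-fold for Hoxb7. On the opposite strand, exons of Hoxb3os overlap 52.9% of the exon bases of Hoxb3 and 27.3% of those of Hoxb2. Whether the counting used strand is not given in the sources used here, so reads of Hoxb3 and Hoxb3os cannot be told apart, and Hoxb3os had 8 counts in P9 DSCs and 0 elsewhere.

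Hoxb8 had 4 counts in P3 DSCs, 196 in P9 DSCs and 0 in both DPC libraries, a ratio of 40.8 between the DSC libraries (15.7 to 151). Hoxb4, known for its action in blood stem cells, had 4 counts in P9 DPCs, 81 in P9 DSCs and 0 in both P3 libraries, and so was at least 22.5-fold higher at passage 9 in DSCs. Hoxb2 had 1 count in P3 DSCs and 29 in P9 DSCs, a ratio of 24.1 with a wide interval (4.0 to 986), and it was too low on average to enter the counts of changed genes. The HoxB sum was 26 counts in P3 DSCs and 1234 in P9 DSCs, a 39.5-fold difference (26.8 to 60.7), and was at least 7.18-fold higher at passage 9 in DPCs, from 0 to 21 counts.

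HoxC was the cluster shared by both DSC libraries. Hoxc6, which acts in the chest region, had 6, 32, 93 and 254 counts in P3 DPCs, P9 DPCs, P3 DSCs and P9 DSCs. It was higher at passage 9 in both cell types, 5.47-fold in DPCs (2.26 to 16.0) and 2.27-fold in DSCs (1.79 to 2.91). It was lower in DPCs than in DSCs at both passages, with a DPC to DSC ratio of 0.0665 at passage 3 (0.0238 to 0.150) and 0.160 at passage 9 (0.107 to 0.232).

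Hoxc4 and Hoxc5, the 3′ genes of the cluster, followed the same order of libraries. Hoxc4 had 0, 3, 33 and 119 counts and was 3.00-fold higher at passage 9 in DSCs (2.03 to 4.56). Hoxc5 had 0, 12, 17 and 49 counts and was 2.40-fold higher at passage 9 in DSCs (1.36 to 4.44). Neither of these DSC ratios reached the 4-fold threshold used below. Hoxc5 shares 5.37% of its exon bases with Hoxc10.

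Hoxc8, Hoxc9 and Hoxc10 were, by contrast, found almost wholly in P9 DSCs. Hoxc8, which shapes the chest and the motor neurons of the forelimb, had 0, 0, 3 and 183 counts, a ratio of 50.8 between the DSC libraries (17.1 to 248). Hoxc9 had 0, 2, 0 and 143 counts and was at least 39.7-fold higher at passage 9 in DSCs. Hoxc10, a gene of the lumbar region and the hindlimb, had 0, 10, 0 and 125 counts and was at least 34.7-fold higher at passage 9 in DSCs.

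Hoxc13 regulates keratin genes of the hair shaft and is the Hox gene best known from the hair follicle. It had 0 counts in P3 DPCs, 30 in P9 DPCs, 31 in P3 DSCs and 67 in P9 DSCs. It was at least 10.3-fold higher at passage 9 in DPCs and 1.80-fold higher in DSCs (1.16 to 2.85). The 3 libraries with Hoxc13 had 0.279 to 0.501 FPKM. The HoxC sum was 15.2-fold higher at passage 9 in DPCs (6.72 to 42.6) and 4.42-fold higher in DSCs (3.76 to 5.22).

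The HoxA genes described here had few counts in every library. Hoxa2, the selector gene of the second pharyngeal arch, had 0, 11, 6 and 6 counts in the same order of libraries. Hoxa3 had 4, 2, 8 and 0 counts, and Hoxa4 had 4 counts in P9 DPCs alone. These 3 genes did not pass the count filter used below.

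**Figure D3:**
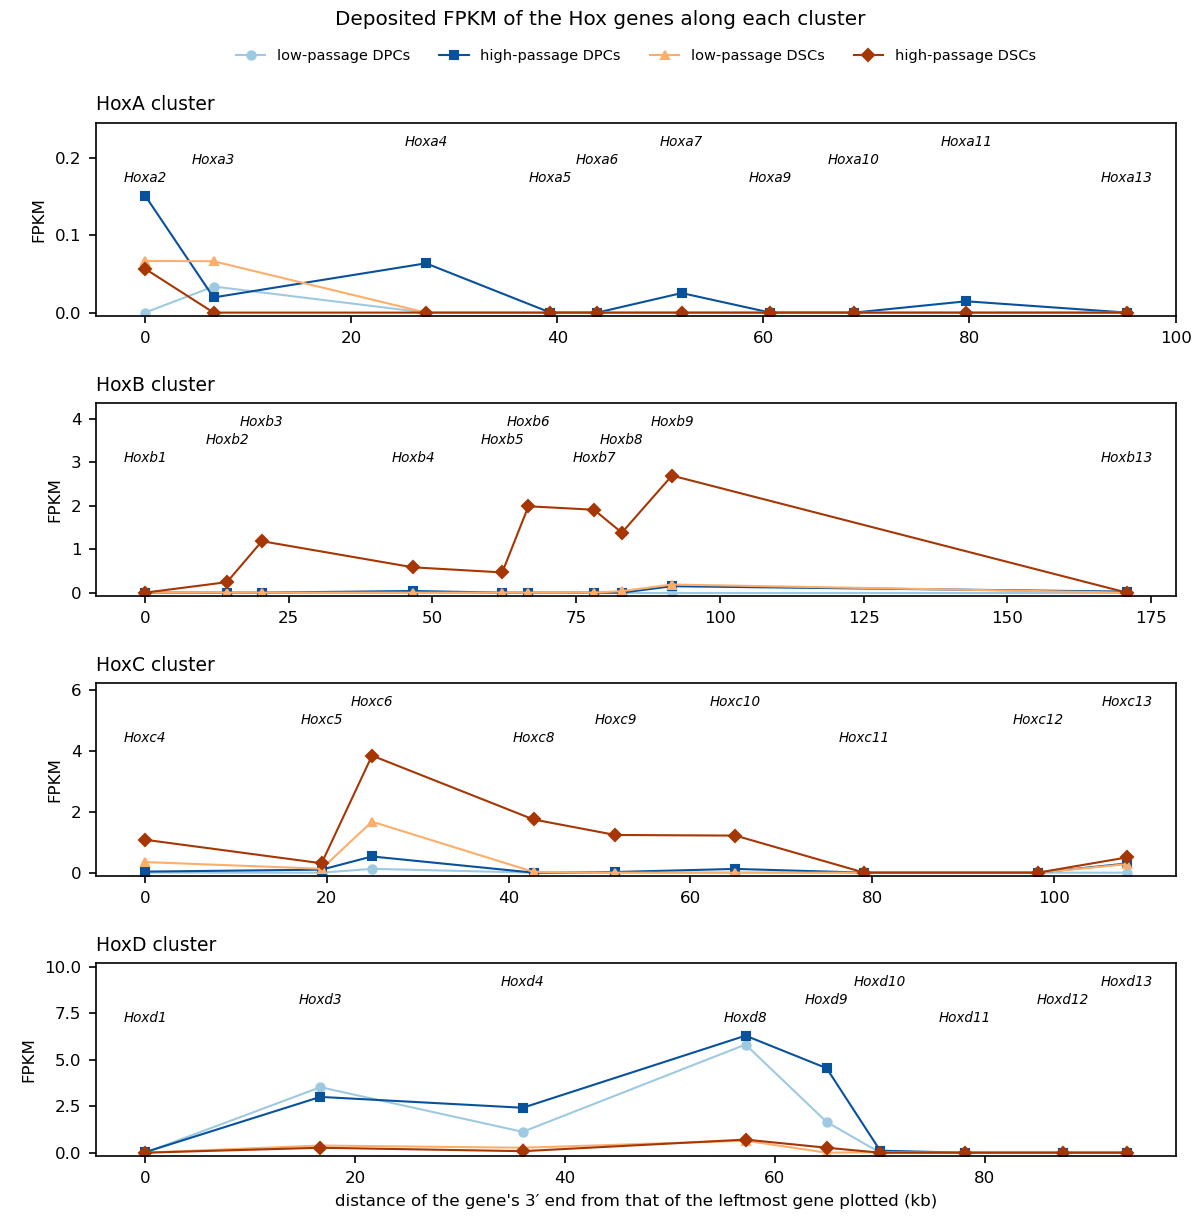
FPKM as deposited of 38 of the 39 Hox genes, plotted against the distance in kb of the gene's 3′ end from that of the leftmost gene plotted, with 1 line per library and 1 panel per cluster with its own vertical scale. Low paralogue numbers are at the left; HoxD peaks at Hoxd8 in both DPC libraries, at 5.82 and 6.30 FPKM, and the line of P9 DSCs lies above the others from Hoxb2 to Hoxb9.

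To compare passages gene by gene, genes with a mean of at least 10 counts over the 4 libraries were kept, 16734 in all and 19 of the 39 Hox genes, and a gene was called at a difference of at least 4-fold in CPM with a prior count of 2. Of these 19 Hox genes, 14 were at 0 in some library and entered through the libraries where they were high, so their number is a description and no measure of how Hox genes as a whole behaved. In DPCs, 5 Hox genes were called higher at passage 9, Hoxb9, Hoxc5, Hoxc6, Hoxc10 and Hoxc13, and 0 were called lower, beside 5.58% of all genes kept called higher and 4.36% lower. In DSCs, 11 were called higher, Hoxb3 to Hoxb9, Hoxc8, Hoxc9, Hoxc10 and Hoxd9, and 0 lower, beside 2.67% and 1.16% of all genes kept. Hoxb9 and Hoxc10 were called higher in both cell types, 2 genes, beside 1.27% of genes kept, and 0 Hox genes were called lower in both, beside 0.508%. The immune, endothelial and Schwann marker lists were lower at passage 9 in the same libraries and the keratinocyte list higher, with the sums given above, and their part in these differences was not tested.

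The calls in DPCs rest on few counts. Hoxc5, at 12 counts against 0, was at least 4.10-fold higher, and Hoxc10, at 10 against 0, at least 3.42-fold higher. The count of 5 became 8 with a prior count of 0.5, 3 with counts halved as if both mates of a read pair had been counted, and 1 with a prior count of 10. The 11 calls in DSCs were 11 with a prior count of 0.5 and with counts halved, and 10 with a prior count of 10. Each of the 11 genes had at least 31 counts at passage 9 and at most 21 at passage 3. With counts halved, 49 of the 54 intervals of Hox genes that excluded a ratio of 1 still did.

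**Figure D4:**
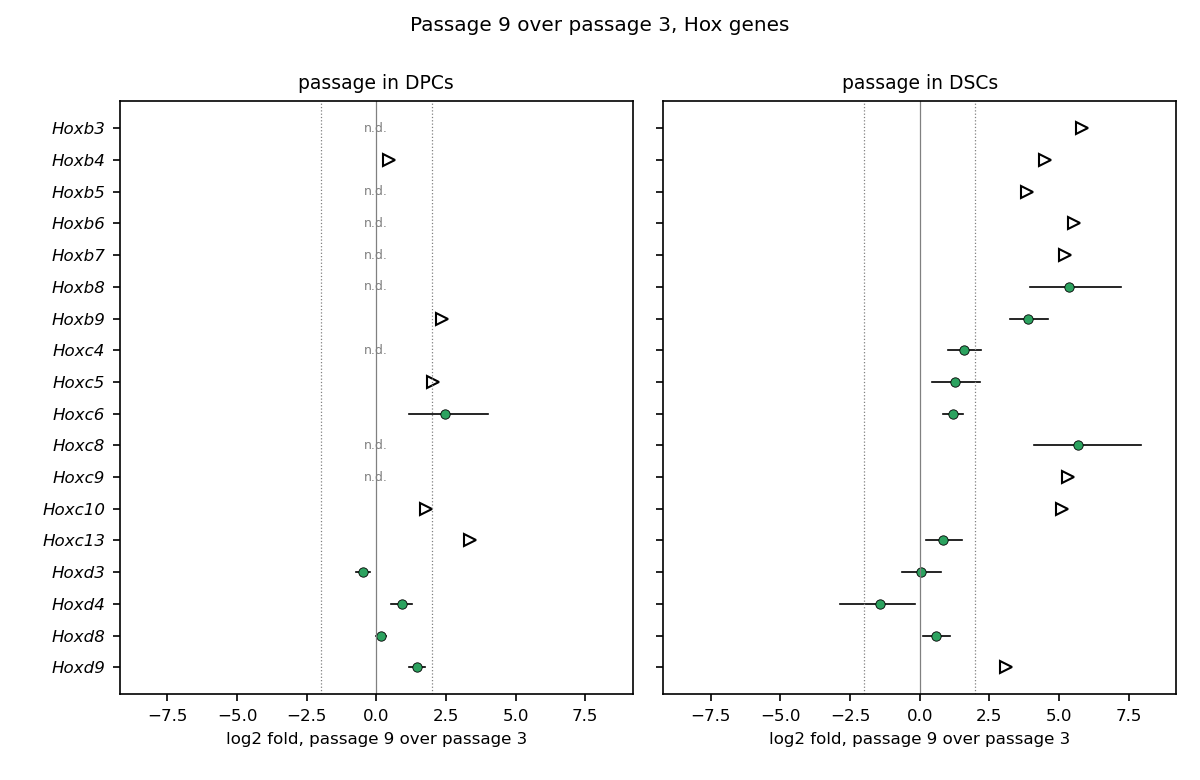
Log2 fold of passage 9 over passage 3 for 18 of the 19 Hox genes with a mean of at least 10 counts, in DPCs (left) and DSCs (right). Points are ratios with exact 95% intervals (counting error only), open triangles are bounds against a library at 0 counts and point the way the true value may lie, n.d. marks genes at or under 3 counts on both sides, and dotted lines mark 4-fold; in DSCs the HoxB genes and Hoxc8 to Hoxc10 lie to the right of the upper dotted line.

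The comparison of cell types asked which Hox genes separate DPCs from DSCs at a given passage. It shares its libraries with the comparison of passages. At passage 3, 4 Hox genes were called higher in DPCs, Hoxd3, Hoxd4, Hoxd8 and Hoxd9, beside 1.52% of all genes kept, and 5 were called lower, Hoxb9, Hoxc4, Hoxc5, Hoxc6 and Hoxc13, beside 2.77%. At passage 9 the same 4 HoxD genes were called higher in DPCs, beside 2.50% of all genes, and 12 were called lower, Hoxb3 to Hoxb9, Hoxc4, Hoxc6, Hoxc8, Hoxc9 and Hoxc10, beside 3.91%. The 4 HoxD genes were thus higher in the DPC library in both pairs of libraries, and every Hox gene called lower in DPCs was of HoxB or HoxC.

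Hoxc13 and Hoxc5 were called lower in DPCs at passage 3 but not at passage 9, and the change in the ratio was not tested. Hoxc13 was at least 10.0-fold lower in DPCs at passage 3 and had a DPC to DSC ratio of 0.569 at passage 9 (0.357 to 0.887). Hoxc5 was at least 5.5-fold lower in DPCs at passage 3 and had a ratio of 0.311 at passage 9 (0.151 to 0.593). That interval reaches 6.64-fold lower, past the passage 3 bound, so a smaller gap is not shown for Hoxc5. Hoxb9 kept a wide gap, at least 6.79-fold lower at passage 3 and with a ratio of 0.0512 at passage 9 (0.0284 to 0.0856).

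**Figure D5:**
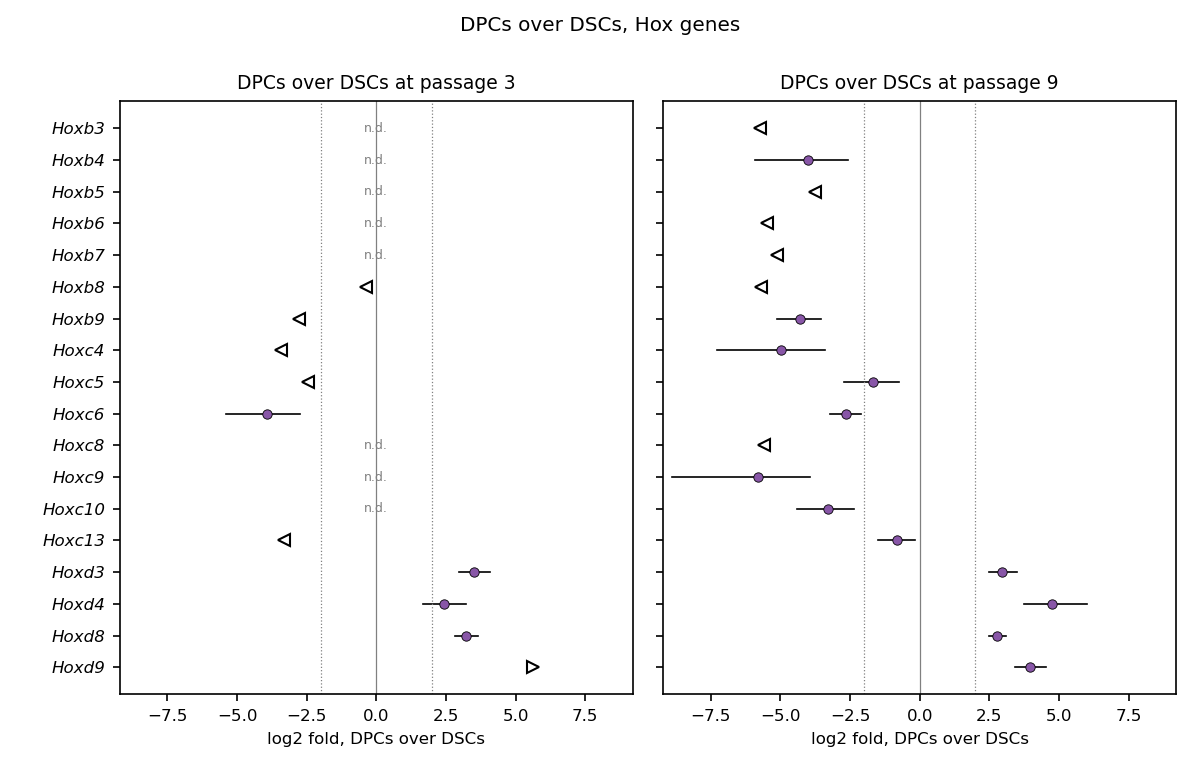
Log2 fold of DPCs over DSCs for the same 18 Hox genes at passage 3 (left) and passage 9 (right), with symbols as in the plot of passage folds. The 4 HoxD genes lie to the right of the upper dotted line at both passages, and the HoxB and HoxC genes with a value lie to the left of 0.

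Other transcripts that lie between the outermost genes of the clusters numbered 46 rows, of which 13 were detected and 8 passed the count filter. In HoxD, Hoxd3os1 on the strand opposite Hoxd3 had 97, 138, 0 and 14 counts, and Haglr, a noncoding transcript between Hoxd1 and Hoxd3, had 78, 68, 2 and 2. Both were thus high in the DPC libraries and low in the DSC libraries, the order seen for Hoxd8 and Hoxd9. In HoxB, the noncoding Gm53, upstream of Hoxb9, had 0, 4, 10 and 95 counts, highest in P9 DSCs. The ratio between its DSC libraries was 7.91 (4.12 to 17.0).

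The genes around the clusters were examined for the same differences. Within 300 kb of the cluster ends lay 26 protein-coding genes, of which 20 were detected and 18 passed the filter. One of the 18, B4galnt2, on the Hoxb13 side of HoxB, was called, in the comparison of cell types, with 0, 0, 107 and 86 counts. The nearest detected gene on the Hoxb1 side, Skap1, had 25, 16, 27 and 43 counts, and Atp5g1 on the other side had 3327, 1879, 2856 and 3301. Igf2bp1, farther out on the Hoxb13 side and chosen after its values were seen, had 166, 114, 116 and 449 counts. It was not called, with a passage ratio of 3.22 in DSCs (2.62 to 3.99). Beside HoxD, Mtx2 had 1959, 1031, 1160 and 1500 counts and Lnpk 849, 609, 1100 and 902. Beside HoxC, Smug1 had 557, 438, 464 and 536 counts and Calcoco1 1908, 4450, 2292 and 4111, and beside HoxA, Skap2 had 666, 1044, 658 and 1498 counts and Hibadh 1649, 1606, 1573 and 2152. Evx1 and Evx2, the homeobox genes at the 5′ ends of HoxA and HoxD, had 0 counts in all libraries, like the 5′ Hox genes beside them.

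Hox proteins bind DNA with the homeodomain partners Pbx, Meis and Pknox, and all 9 of these genes were detected in every library. Of them, 2 were called in at least 1 of the 4 comparisons, beside 1.16% to 5.58% of all genes kept in each direction of a comparison. Meis2 had 838, 1020, 3946 and 3909 counts and was called lower in DPCs at passage 3, with a log2 difference of -2.19 (-2.30 to -2.08). Pknox2 had 48, 204, 387 and 169 counts, was called higher at passage 9 in DPCs, with a log2 difference of 2.08 (1.66 to 2.61), and was called lower in DPCs than in DSCs at passage 3, with a log2 difference of -2.92 (-3.43 to -2.53). The list median of the passage difference on the log2 scale was 0.32 in DPCs and -0.25 in DSCs, against 0.03 and 0.00 over all genes kept.

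Polycomb proteins keep Hox genes silent and Trithorax proteins keep them active. All 30 Polycomb genes and all 12 Trithorax genes listed were detected in every library, and 0 of either list were called in any of the 4 comparisons. Of all genes kept, 1.16% to 5.58% were called in each direction of a comparison, so 0 calls in lists of this size say little. The most abundant Polycomb genes on average, Rbbp4 and Cbx6, had 6698, 3755, 6249 and 6847 counts and 3990, 7466, 4912 and 7022 counts. The most abundant Trithorax genes, Ash1l and Kmt2a, had 6062, 9521, 6722 and 8905 counts and 5260, 10201, 6196 and 8493 counts. Ezh2, chosen after its values were seen, is the methyltransferase of a Polycomb complex and had 735, 266, 710 and 369 counts, with log2 passage differences of -1.42 in DPCs (-1.64 to -1.23) and -1.20 in DSCs (-1.39 to -1.03). The median passage difference on the log2 scale was -0.01 in DPCs and -0.01 in DSCs for the Polycomb list, and 0.29 and -0.06 for the Trithorax list. Of the Cdx genes, which activate central Hox genes in the embryo, Cdx1 had 0, 6, 9 and 0 counts, and the other two had 0 throughout.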

How the data were processed

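The authors deposited raw read counts per gene and FPKM (counts relative to gene length and library total) for 4 RNA-seq libraries, 1 per group. The labels name an Illumina TruSeq RNA kit, whereas the study's methods describe a poly-T selection with a NEBNext Ultra kit and paired-end reads. The submitters' processing notes name Bowtie 0.12.2 and the builds mm8 and mm9, with no role. The positions of all 39 Hox genes in the files matched GRCm38 (GENCODE M21). The counter and its use of strand are not given in the sources used here, and low counts were more often even than odd (in P3 DPCs 1339 genes had 2 counts and 583 had 3), so both mates of a pair may have been counted.

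The deposited counts were scaled by TMM in edgeR 4.0.16 over all 4 libraries, and log2 CPM differences used a prior count of 2, over 16734 genes with a mean count of at least 10. A gene was called at 4-fold or more. Intervals are exact Clopper-Pearson intervals of one library's share of the reads of a pair of libraries, scaled by library size. A library at 0 counts was set to 3 counts to give a bound, which leaves out the counting error of the other library. Folds with 1 to 3 counts on one side are ratios with their interval, and none is given where both sides are at or under 3. No test was run, since each group has 1 library. FPKM were used as deposited to compare levels between genes. The scripts were tested on simulated data. Hox genes above 3 counts in a library are given with their counts, except 1 that is not reported here, and cofactors, chromatin regulators and neighbours are named if called, otherwise by highest count or by position. The gene family and the lists were chosen with earlier results of these data known. Sequences come from RefSeq (GRCm38.p6). Alternatives were DESeq2 1.42.0 size factors, total-count and upper-quartile scaling, other prior counts, filters, floors and thresholds, halved counts, and FPKM with pseudocounts of 0.1 and 1.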

Additional observations from a re-analysis of the deposited data

Results flagged for a closer look

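Hoxd4 is set apart because the passage difference pointed in opposite directions in the 2 cell types. It had 93 counts in P3 DPCs and 170 in P9 DPCs, a log2 difference of 0.89, and 18 counts in P3 DSCs and 8 in P9 DSCs, a log2 difference of -1.21. The DPC difference minus the DSC difference was 2.11 on the log2 scale. That difference was not tested, since each group had 1 library. Hoxd4 shares 52.3% of its exon bases with Hoxd3 or Gm28230 on the same strand, and Gm28230 had 212 and 525 counts in P3 and P9 DPCs and 7 and 5 in P3 and P9 DSCs. The part of the shared exons in the result was not tested.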

How the results depend on the processing

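DESeq2, total-count and upper-quartile scaling left every count of Hox calls as it was, and no alternative reversed the direction of a called Hox gene. Among the single genes, 585 recomputed values moved by less than their counting interval or kept their side of the threshold, and 115 did not. Hox genes called higher with passage in DPCs, 5 as reported, were 8 with a prior count of 0.5, 1 with a prior count of 10, 1 with a mean count of at least 100 required, 3 with counts halved, 1 and 0 with FPKM and a pseudocount of 0.1 and 1, and 9 at 2-fold. Those higher in DSCs, 11 as reported, were 2 with a mean count of at least 100, where fewer genes are kept, and 0 with FPKM and a pseudocount of 1, which exceeds most Hox levels. Those lower in DSCs, 0 as reported, were 1 without a filter and 1 at 2-fold. Those higher in both cell types, 2 as reported, were 4 with a prior count of 0.5, 0 with a prior count of 10, 1 with a mean count of at least 100, 1 with counts halved, 0 with FPKM at either pseudocount, and 8 at 2-fold.

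Hox genes higher in DPCs than DSCs, 4 at each passage, were 1 at passage 3 and 2 at passage 9 with FPKM and a pseudocount of 1. Those lower in DPCs at passage 3, 5 as reported, were 3 with a prior count of 10, 1 with a mean count of at least 100, and 2 and 0 with FPKM and a pseudocount of 0.1 and 1. Those lower at passage 9, 12 as reported, were 1 with a mean count of at least 100 and 0 with FPKM and a pseudocount of 1. Without the genes that share exons on their strand, 4 Hox genes were detected in P3 DPCs, 8 in P9 DPCs and 7 in P3 DSCs, and this alternative and the scaling of counts to the shallowest library were chosen after seeing the data. By FPKM, HoxC made up 54.6% of the Hox sum in P3 DSCs, and in P9 DSCs HoxB made up 46.5%, HoxC 44.3% and HoxD 5.87%.

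Cofactors and chromatin regulators called with passage in DPCs, 1 as reported, were 2 with total counts, 0 with a prior count of 10, 3 without a filter, 0 with FPKM and a pseudocount of 1, and 10 at 2-fold. In DSCs, 0 as reported became 1 without a filter and 3 at 2-fold. Between cell types, 2 at passage 3 became 0 with FPKM and a pseudocount of 1, and 0 at passage 9 became 1 without a filter and 5 at 2-fold. Neighbours called with passage, 0 as reported, were 1 without a filter in each cell type, and 2 in DPCs and 1 in DSCs at 2-fold. Neighbours called between cell types, 1 at each passage, were 2 without a filter at each passage, 0 with a mean count of at least 100 or with FPKM and a pseudocount of 1, and 2 at passage 3 and 3 at passage 9 at 2-fold. Other transcripts of the clusters called with passage in DPCs, 0 as reported, were 1 with a prior count of 0.5, 1 without a filter and 3 at 2-fold. In DSCs, 2 as reported became 1 with a prior count of 10, 4 without a filter, and 0 with a mean count of at least 100 or with FPKM and a pseudocount of 1. Between cell types, 4 at each passage became 1 with a mean count of at least 100, and 1 at passage 3 and 2 at passage 9 with FPKM and a pseudocount of 1. At 2-fold, 16.1% of all genes kept were higher and 15% lower with passage in DPCs, 8.55% and 6.21% in DSCs, 5.43% and 7.86% in DPCs over DSCs at passage 3, and 9.11% and 11% at passage 9. Unless stated, the cause of a change was not tested.

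No paired analysis was run, because each group has 1 library and whether the passages came from one culture is not given. A fit of passage over both cell types, with cell type as a term, was not run. With 1 library per group, leaving out a replicate could not be tried. At these depths Hox genes below about 0.08 CPM cannot be told from absent, and if both mates of a pair were counted the intervals are too narrow.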

Other observations

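Further noncoding rows of the clusters were detected. Hoxaas2 and Gm14424 had a mean under 10 counts, and Gm27477, Gm15050 and Gm11539 passed the filter but were not called in any comparison. Hoxaas2, on the strand opposite Hoxa3, had 13 counts in P3 DPCs, 1 in P9 DPCs, 0 in P3 DSCs and 25 in P9 DSCs. Its passage ratio in DPCs was 0.0789 (exact 95% interval 0.00186 to 0.525, counting error only), and it was at least 6.93-fold higher at passage 9 in DSCs, so the single libraries of the 2 cell types differed in opposite directions. Gm14424 in HoxD had 10, 5, 0 and 0 counts in the same order of libraries, the DPC pattern of the HoxD genes. In HoxA, Gm27477 had 4, 11, 6 and 20 counts and Gm15050 had 11, 12, 8 and 21, both highest in P9 DSCs. Gm11539, a pseudogene row between Hoxb13 and Hoxb9, had 47, 30, 37 and 33 counts and did not follow the HoxB genes around it. These rows were chosen after their values were seen, and no test was run on them.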
